A study of Homo sapiens with 12 samples.

Results

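Catalase and antioxidant enzymes are described here by 10 of the 58174 genes listed in the deposited tables: CAT, SOD1, SOD2, GPX1, GPX4, PRDX1, TXNRD1, NQO1, HMOX1 and GCLM. CAT was chosen by its higher level after the knockdown in these same libraries, so its values are a description without a test. The other 9 genes, like the further gene lists below, were listed by function, but with earlier results of these data known. Their calls and counts are therefore not those of an independent choice. The data were poly-A RNA-seq of Hep-G2, a hepatoblastoma-derived liver tumour cell line, and of BE(2)-C, a neuroblastoma cell line. Cells were transfected for 72 h with a control siRNA (siC) or with a pool of siRNAs against IGF2BP1 (siI1), an RNA-binding protein abundant in embryos and in many tumours, with 3 libraries in each of the 4 groups. The siRNA dose was 15 nM for Hep-G2 but 25 nM for BE(2)-C, so the dose and the line cannot be told apart.

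Values are FPKM, fragments scaled to gene length and library size, and each line has a table that was normalised on its own. Reads on genes ranged from 13398903 to 15176939 per Hep-G2 library and from 12852988 to 15721210 per BE(2)-C library. Changes are log2 fold changes of siI1 against siC on log2(FPKM + 0.1) with their standard error (SE) and the adjusted p of limma over all genes tested, and a gene was called at an adjusted p below 0.05. The study's methods call the 3 libraries of a group biological replicates but do not say whether these were separate cultures, and the p-values measure the spread between the libraries. In bulk RNA, fewer cells with a transcript and less transcript per cell cannot be told apart.

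Cells form superoxide and hydrogen peroxide as by-products of respiration and of oxidases. Superoxide dismutases turn superoxide into hydrogen peroxide, which catalase in peroxisomes, glutathione peroxidases and peroxiredoxins remove, with glutathione and thioredoxin kept reduced by NADPH. The transcription factor NRF2 (gene NFE2L2), held back by KEAP1, drives many of these genes, and liver is known for high catalase.

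IGF2BP1 was low in every siI1 library. Its Hep-G2 level was 48.5, 46.6 and 50.8 FPKM in siC and 12.6, 10.7 and 10.7 FPKM in siI1 libraries. The BE(2)-C level was 21.3, 20.6 and 21.6 FPKM in siC and 4.85, 4.75 and 4.87 FPKM in siI1 libraries. Groups lay far apart, with a siI1 mean of 23.3% and 22.8% of the siC mean, in that order of lines. The log2 fold changes were -2.10 ± 0.08 (SE, adjusted p = 7.83e-06, limma) and -2.11 ± 0.05 (SE, adjusted p = 1.48e-05, limma). They differed by 0.02 ± 0.09 (SE, adjusted p = 0.914, limma), a value that turned negative with equal sums of FPKM (-0.17), with a pseudocount of 1 (-0.08) and without Hep-G2 siC replicate 2 (-0.02) or siI1 replicate 1 (-0.06), and was called with centring within length groups (0.24, adjusted p = 0.00976; adjusted p of 0.00976 to 0.996 over the alternatives).

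The lines carried their own markers. All 9 hepatoblast markers were above 0 in each Hep-G2 library, led by albumin (ALB). Their summed level there was 7644, 7599 and 7574 FPKM in siC and 12105, 13629 and 13798 FPKM in siI1 libraries, with 5 of 9 tested genes called higher and 2 lower, beside 21.9% and 23.0% of all genes, and 4 higher and 4 lower with equal sums of FPKM, beside 16.5% and 30.0% of all genes. In the BE(2)-C libraries the same 9 genes summed to 0.256 to 0.434 FPKM, and AFP, FGB and HNF4A were at 0 in each of them. All 9 neuroblastoma markers were above 0 in each BE(2)-C library, led by MYCN. They summed to 2937, 2758 and 2823 FPKM in siC and 2766, 2728 and 2823 FPKM in siI1 libraries, with 1 of 9 tested genes called higher and 5 lower, beside 13.3% and 14.8% of all genes, and 2 higher and 5 lower with equal sums of FPKM, beside 13.9% and 14.0% of all genes. Hep-G2 libraries held 0.0663 to 0.269 FPKM of them, led by DBH, with HAND2 and ISL1 at 0 in each. Most of each BE(2)-C sum was MYCN, at 1688, 1620 and 1671 FPKM in siC and 1880, 1855 and 1955 FPKM in siI1 libraries. The sums therefore do not describe the other neuroblastoma markers.

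The 7 markers of mesenchymal-type neuroblastoma summed to 4.74, 4.05 and 3.65 FPKM in BE(2)-C siC and 7.56, 7.04 and 6.58 FPKM in siI1 libraries, led by SNAI2. PRRX1 was at 0 in siC replicate 1 and in siI1 replicates 1 and 3, and YAP1 in siC replicate 1. By limma this was 2 of 5 tested genes called higher and 0 lower, beside 13.3% and 14.8% of all genes, with 2 higher and 0 lower at an unadjusted p below 0.05 (19.4% and 20.4% of all genes) and 3 higher and 0 lower by voom (17.2% and 17.8% of all genes). In Hep-G2 libraries these 7 genes summed to 805, 692 and 785 FPKM in siC and 464, 371 and 382 FPKM in siI1, led by FN1, with 0 of 5 tested genes called higher and 2 lower by limma, beside 21.9% and 23.0% of all genes, 1 higher and 2 lower at an unadjusted p below 0.05 (25.7% and 26.6% of all genes) and 1 higher and 2 lower by voom (23.5% and 24.8% of all genes), and PRRX1 was above 0 in siI1 replicate 2 alone. Most of each Hep-G2 sum was FN1 alone, at 750, 642 and 729 FPKM in siC and 451, 359 and 372 FPKM in siI1 libraries. The Hep-G2 sums therefore do not describe the other genes of this list. The part of these marker shifts in the results on antioxidant genes was not tested.

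CAT encodes catalase, lies at chr11:34438934-34472060 on the plus strand of hg38 (ENSG00000121691) and overlaps no other gene of GENCODE 44. The 250 bases before its start (chr11:34438684-34438933, plus strand, RefSeq, GRCh38.p14) are shown because CAT is the gene by which the set was chosen. They hold 5 copies of CCAAT, printed in capitals and read on either strand.

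CAT promoter: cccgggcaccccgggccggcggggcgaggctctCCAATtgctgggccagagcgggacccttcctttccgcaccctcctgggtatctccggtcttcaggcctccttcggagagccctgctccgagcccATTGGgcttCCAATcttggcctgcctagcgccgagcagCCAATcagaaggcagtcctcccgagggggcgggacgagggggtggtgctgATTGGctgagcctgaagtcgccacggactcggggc

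CCAAT on either strand is present in 34.6% of the 35116 promoter windows of the same table, which run from 250 bases before to 50 after each start. Windows were matched for 7 of the 10 genes, and CAT, GPX4, SOD2 and TXNRD1 hold the letters in at least 1 of theirs. A match is a string of letters and no evidence of binding.

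CAT stood at 30.8, 31.2 and 32.0 FPKM in the Hep-G2 siC libraries and at 70.4, 64.9 and 61.4 FPKM in the siI1 libraries. The BE(2)-C libraries held 5.31, 4.45 and 5.17 FPKM with siC and 7.29, 6.49 and 7.77 FPKM with siI1. Each siI1 library was above each siC library of its line, on 1424 to 3187 reads per Hep-G2 library and 191 to 377 per BE(2)-C library. The log2 fold change was 1.06 ± 0.06 (SE) for Hep-G2, a fold of 2.08. The value for BE(2)-C was 0.52 ± 0.10 (SE). These changes differ by 0.54 ± 0.12 (SE), and by 0.35 with equal sums of FPKM, given without a test because both contrasts were used to choose the gene.

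Genes were also ranked by how like that of CAT their log2 level was over the 12 libraries, centred within each line. Of 11083 other protein-coding genes tested in both lines, the highest Pearson r was 0.994 for ARHGEF17, followed by 0.986 for IFT140, 0.985 for GSTA4, 0.983 for DNAH1 and 0.982 for HDAC6. The libraries share the knockdown and their normalisation, so these correlations are a description. DNAH1 had siC means of 0.091 FPKM in Hep-G2 and 0.047 FPKM in BE(2)-C, below the filter of 0.1. Its siI1 means were 0.77 and 0.20 FPKM, so it passed mainly through siI1, and its likeness to CAT is in part built in. Among the other 9 enzymes r with CAT ran from 0.769 for GPX4 to -0.948 for TXNRD1.

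**Figure D1:**
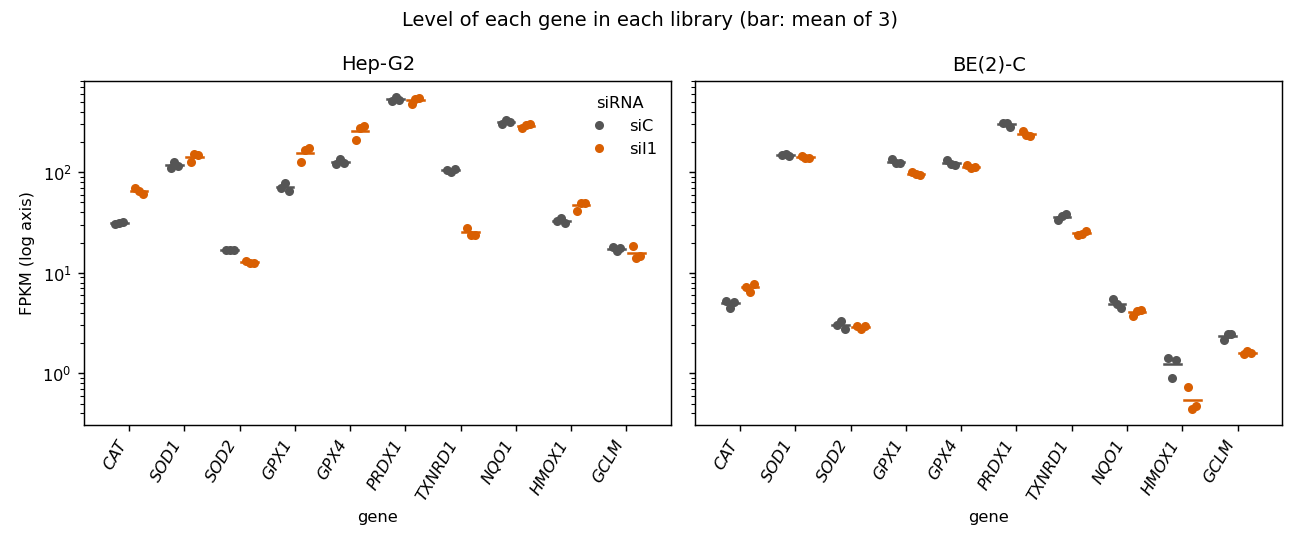
FPKM (log axis) of each of the 10 genes in each library, siC in grey and siI1 in orange, with the mean of 3 libraries as a bar. Among Hep-G2 libraries the siI1 points of CAT, GPX1, GPX4 and HMOX1 lie above all siC points and those of SOD2 and TXNRD1 below, while for BE(2)-C CAT alone lies above.

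The other 9 genes all passed the filter on low values in both lines. Of these 9, 4 were called higher (SOD1, GPX1, GPX4 and HMOX1) and 2 lower (SOD2 and TXNRD1) by limma in Hep-G2, beside 21.9% of 19436 genes tested called higher and 23.0% lower. For BE(2)-C 0 of 9 were called higher by limma, as by voom and at an unadjusted p below 0.05, and 5 lower (GPX1, PRDX1, TXNRD1, HMOX1 and GCLM), beside 13.3% of 18656 genes called higher and 14.8% lower. The median log2 fold change of the 9 was -0.04 and -0.32 in that order of lines, beside 0.01 and 0.02 over all genes. The difference between lines (log2 fold change of Hep-G2 minus that of BE(2)-C) was called for 6 of the 9. It was positive for 4 and negative for 2 (SOD2 and TXNRD1), beside 18.5% and 21.7% of 15362 genes.

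With the sums of FPKM made equal, the median change of all genes shifted by -0.15 for Hep-G2 and the difference by -0.17. The share of calls that were higher then went from 48.8% to 35.5% for Hep-G2 and from 46.0% to 31.0% for the difference. Of the 9 genes 3 higher and 4 lower were then called in Hep-G2, beside 16.5% and 30.0% of all genes.

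**Figure D2:**
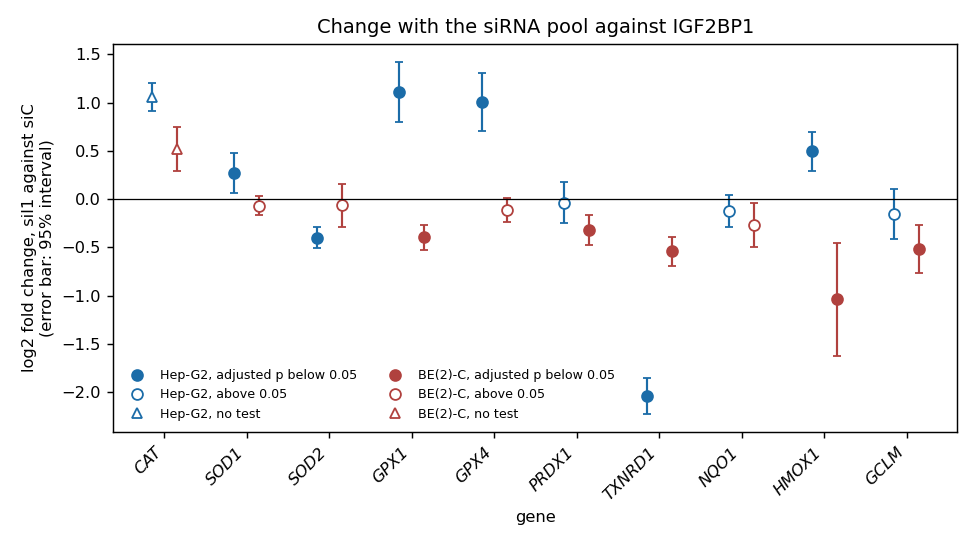
Log2 fold change of siI1 against siC with its 95% interval for each gene, Hep-G2 in blue and BE(2)-C in red. Filled circles passed an adjusted p of 0.05, open circles did not, and open triangles mark CAT, which was not tested. GPX1 and HMOX1 lie on opposite sides of 0 in the lines, and TXNRD1 lies lowest with -2.04 for Hep-G2.

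The change went with gene length in both lines. Among protein-coding genes of Hep-G2, the median log2 fold change was 0.27 for lengths up to 1500 nt and -0.20 for lengths over 8000 nt. The order was the other way for BE(2)-C, with -0.09 for the shortest and 0.08 for the longest genes. Among Hep-G2 siI1 libraries replicate 1 stood apart, with a summed FPKM of 273699 beside 297453 and 300505, and without it the Hep-G2 medians were 0.38 and -0.26. Changes were therefore also computed with median centring within 10 groups of gene length, an alternative chosen after seeing the data and called length centring below.

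**Figure D3:**
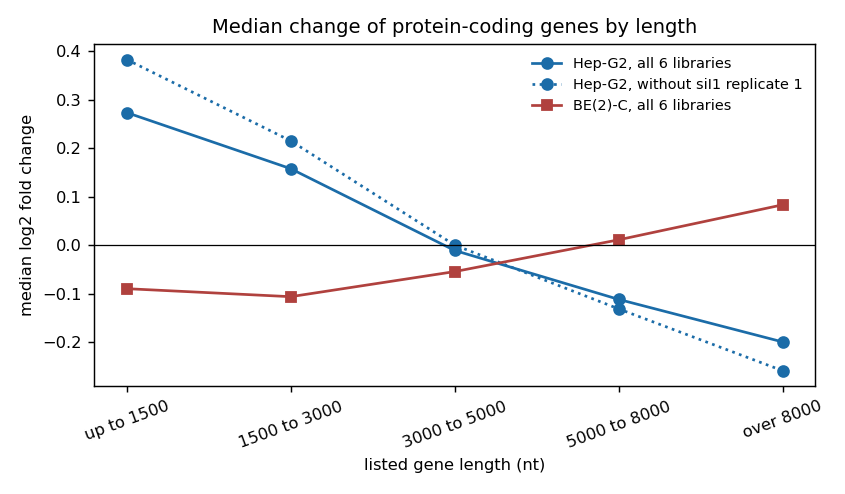
Median log2 fold change of protein-coding genes in 5 groups of listed gene length (nt), for Hep-G2 with all libraries and without siI1 replicate 1, and for BE(2)-C. Both Hep-G2 lines go down from the shortest to the longest genes, and the BE(2)-C line goes up from the lengths of 1500 to 3000 nt onward.

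The superoxide dismutases had small changes. SOD1, the copper and zinc enzyme of the cytosol, was at 110, 126 and 115 FPKM in Hep-G2 siC and at 126, 150 and 148 FPKM in siI1 libraries. The lowest siI1 library lay within the siC range. The log2 fold change was 0.27 ± 0.09 (SE, adjusted p = 0.0448, limma), and the call was lost in 8 of 16 alternatives: no filter, no trend, equal sums, length centring (0.10, adjusted p = 0.111), and without siC replicate 1 (adjusted p = 0.143) or 3 (0.127) or siI1 replicate 2 (0.141) or 3 (0.129), with an adjusted p of 0.00661 to 0.175 over the alternatives. Over the BE(2)-C libraries SOD1 was at 138 to 150 FPKM, the groups overlapped, and the log2 fold change of -0.07 ± 0.04 (SE, adjusted p = 0.286, limma) turned to 0.06 with length centring and was -0.04 with median centring. The difference between lines of 0.34 ± 0.10 (SE, adjusted p = 0.0213, limma) was lost in 5 of 23 alternatives, with length centring at 0.04 (adjusted p = 0.571), equal sums at 0.15 and without Hep-G2 siC replicate 1 or siI1 replicate 2 or 3 at 0.29, 0.29 and 0.30 (adjusted p of 0.00140 to 0.571 over the alternatives).

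SOD2, the manganese enzyme of mitochondria, was at 16.8, 17.0 and 16.8 FPKM in Hep-G2 siC and at 13.0, 12.6 and 12.6 FPKM in siI1 libraries, with no overlap. The log2 fold change was -0.40 ± 0.05 (SE, adjusted p = 0.000586, limma), and with length centring -0.17 (adjusted p = 0.0861; adjusted p of 9.58e-05 to 0.0861 over the alternatives). The BE(2)-C levels of 2.78 to 3.32 FPKM overlapped, with a change of -0.06 ± 0.09 (SE, adjusted p = 0.659, limma) that ran from -0.15 to 0.00 over the alternatives. The difference of -0.34 ± 0.09 (SE, adjusted p = 0.0142, limma) became -0.52 with equal sums and -0.02 (adjusted p = 0.907) with length centring (adjusted p of 0.00230 to 0.907 over the alternatives). SOD2 has the largest listed length of the 10 genes, 18985 nt, so its FPKM is low beside its 3202 to 4940 reads per Hep-G2 library.

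In the list of superoxide dismutases and their copper chaperone, 2 of 4 tested genes were called higher and 1 lower (median log2 fold change 0.47; over all genes 0.01, with 21.9% higher and 23.0% lower) for Hep-G2, and in the alternatives 1 higher and 1 lower (median 0.34; all genes -0.15, 16.5% and 30.0%) with equal sums, 1 higher and 0 lower (median 0.33; all genes 0.01, 23.4% and 22.3%) with length centring and 2 higher and 1 lower (median 0.63; all genes 0.01, 23.5% and 24.8%) by voom. On the BE(2)-C side 0 of 3 tested genes were called higher and 0 lower (median log2 fold change -0.07; over all genes 0.02, with 13.3% higher and 14.8% lower) by limma, with the same counts by voom and at an unadjusted p below 0.05. CCS, which loads copper into SOD1, rose in Hep-G2 by 0.98 ± 0.09 (SE, adjusted p = 0.000222, limma), beside -0.17 ± 0.09 (SE, adjusted p = 0.203, limma) in BE(2)-C. Its mean Hep-G2 level was 11.4 FPKM in siC and 22.8 FPKM in siI1 libraries. The Hep-G2 medians of this list rest in part on SOD3, which had 0 to 8 reads per library. Its mean was 0.051 FPKM in siC, below the filter of 0.1, and 0.145 FPKM in siI1 libraries, so it passed mainly through siI1. SOD3 had 0.66 ± 0.51 (SE, adjusted p = 0.331, limma), beside 0.27 for SOD1.

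The glutathione peroxidases GPX1, a cytosolic form, and GPX4, which reduces lipid peroxides in membranes, are selenoproteins, as is TXNRD1. Selenocysteine enters these proteins at a UGA codon that is not read as a stop. That codon is shown with the coding bases around it (GENCODE 44, hg38, TGA in capitals) because these 3 genes share it and the coding sequences of the other 7 hold no TGA in frame before their stop.

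GPX1: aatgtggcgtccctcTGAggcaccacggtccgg

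GPX4: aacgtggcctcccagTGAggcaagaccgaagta

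TXNRD1: ctccaggctggctgcTGAggttaa

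The TGA is codon 49 of 203 in GPX1 (chr3:49358132-49358134, minus strand), codon 73 of 197 in GPX4 (chr19:1105403-1105405, plus strand) and codon 648 of 649 in TXNRD1 (chr12:104348413-104348415, plus strand).

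GPX1 was at 70.2, 77.7 and 65.8 FPKM in Hep-G2 siC and at 125, 167 and 173 FPKM in siI1 libraries. With BE(2)-C it was at 135, 124 and 122 FPKM in siC and at 101, 95.1 and 93.7 FPKM in siI1 libraries. Neither line showed any overlap, and the directions were opposite. The log2 fold change was 1.11 ± 0.13 (SE, adjusted p = 0.000656, limma) for Hep-G2, a fold of 2.16. It was -0.40 ± 0.05 (SE, adjusted p = 0.00261, limma) for BE(2)-C. These changes differed by 1.51 ± 0.15 (SE, adjusted p = 2.32e-05, limma), and all 3 calls held in every alternative run. The pseudogene GPX1P1 had 6 to 29 reads per Hep-G2 library beside 1382 to 3457 on GPX1.

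GPX4 was at 121, 136 and 124 FPKM in Hep-G2 siC and at 210, 272 and 289 FPKM in siI1 libraries. Replicate 1 was the lowest siI1 library for both peroxidases and still lay above every siC library. The log2 fold change of GPX4 was 1.01 ± 0.13 (SE, adjusted p = 0.000798, limma), and without that replicate it was 1.15, beside 1.26 for GPX1. Levels in BE(2)-C libraries were 131, 120 and 119 FPKM with siC and 118, 111 and 111 FPKM with siI1, a change of -0.11 ± 0.05 (SE, adjusted p = 0.161, limma) that became 0.01 with length centring and -0.07 without siC replicate 1. The difference between the lines was 1.12 ± 0.15 (SE, adjusted p = 0.000121, limma), called in every alternative run.

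In the list of catalase and glutathione peroxidases, counted without CAT, 4 of 6 tested genes were called higher and 2 lower (median log2 fold change 0.98; over all genes 0.01, with 21.9% higher and 23.0% lower) for Hep-G2, and in the alternatives 4 higher and 2 lower (median 0.81; all genes -0.15, 16.5% and 30.0%) with equal sums, 4 higher and 1 lower (median 1.02; all genes 0.04, 23.6% and 21.1%) with median centring, 4 higher and 2 lower (median 0.81; all genes 0.01, 23.4% and 22.3%) with length centring and 4 higher and 2 lower (median 0.99; all genes 0.01, 23.5% and 24.8%) by voom. GPX3, the secreted form, rose by 1.13 ± 0.08 (SE, adjusted p = 7.93e-05, limma), beside 0.12 ± 0.09 (SE, adjusted p = 0.375, limma) in BE(2)-C. GPX2 had the highest Hep-G2 level of this list, with means of 356 FPKM in siC and 287 FPKM in siI1 libraries. It went the other way, with -0.32 ± 0.11 (SE, adjusted p = 0.0486, limma), a call kept in 9 of 16 alternatives, and was not tested in BE(2)-C. GPX8, a form of the endoplasmic reticulum, had 2.24 FPKM in siC and 0.524 FPKM in siI1 libraries, a change of -1.91 ± 0.15 (SE, adjusted p = 9.68e-05, limma) that was smaller with a pseudocount of 1 (-1.09), and was not tested in BE(2)-C. With BE(2)-C cells 0 of 4 tested genes were called higher and 1 lower (median log2 fold change 0.00; over all genes 0.02, with 13.3% higher and 14.8% lower) by limma, with the same counts by voom and at an unadjusted p below 0.05, and in the alternatives 0 higher and 1 lower (median 0.02; all genes 0.03, 13.9% and 14.0%) with equal sums and 1 higher and 1 lower (median 0.11; all genes 0.05, 14.8% and 13.2%) with length centring.

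**Figure D4:**
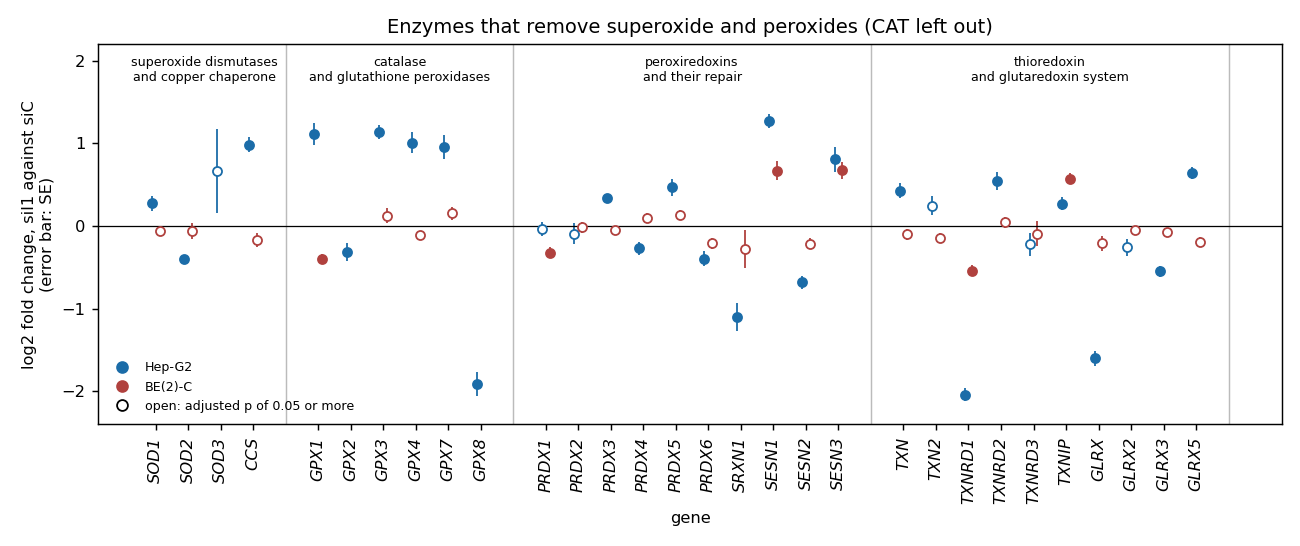
Log2 fold change with its SE for each gene of 4 enzyme lists (CAT left out), Hep-G2 in blue and BE(2)-C in red, filled where the adjusted p was below 0.05. Blue points of CCS, GPX1, GPX3 and GPX4 lie near 1 and those of GPX8, GLRX and TXNRD1 lie lowest, while SESN1, SESN3 and TXNIP are the filled red points above 0.

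PRDX1, a cytosolic peroxiredoxin, had the highest level of the 10 genes in all 4 groups. It was at 508, 563 and 519 FPKM in Hep-G2 siC and at 474, 530 and 546 FPKM in siI1 libraries. These ranges overlapped. The change of -0.04 ± 0.09 (SE, adjusted p = 0.759, limma), 95% interval -0.25 to 0.17, turned to 0.00 with median centring, 0.01 without siC replicate 2 and 0.02 without siI1 replicate 1, and was called with equal sums (-0.21) and length centring (-0.21, adjusted p = 0.00831; adjusted p of 0.00831 to 0.974 over the alternatives). PRDX1 was lower in BE(2)-C siI1 libraries, at 307, 310 and 280 FPKM with siC and 257, 233 and 228 FPKM with siI1, with no overlap. That change of -0.32 ± 0.07 (SE, adjusted p = 0.0119, limma) was -0.20 with length centring and lost its call without siI1 replicate 2 (adjusted p = 0.0513) or 3 (0.0512; adjusted p of 2.01e-05 to 0.0513 over the alternatives). The difference of 0.28 ± 0.11 (SE, adjusted p = 0.0574, limma) passed the threshold in 9 of 23 alternatives, with replicate number as a block among them (adjusted p = 0.0290), and was 0.10 with equal sums (adjusted p = 0.274) and -0.01 with length centring.

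In the list of peroxiredoxins and their repair, 4 of 10 tested genes were called higher and 4 lower (median log2 fold change -0.07; over all genes 0.01, with 21.9% higher and 23.0% lower) for Hep-G2, and in the alternatives 3 higher and 5 lower (median -0.23; all genes -0.15, 16.5% and 30.0%) with equal sums, 4 higher and 6 lower (median -0.24; all genes 0.01, 23.4% and 22.3%) with length centring and 4 higher and 4 lower (median -0.07; all genes 0.01, 23.5% and 24.8%) by voom. Among BE(2)-C genes 2 of 10 tested genes were called higher and 1 lower (median log2 fold change -0.03; over all genes 0.02, with 13.3% higher and 14.8% lower), and in the alternatives 2 higher and 2 lower (median -0.01; all genes 0.03, 13.9% and 14.0%) with equal sums, 4 higher and 1 lower (median 0.07; all genes 0.05, 14.8% and 13.2%) with length centring and 2 higher and 2 lower (median -0.03; all genes 0.02, 17.2% and 17.8%) by voom. SESN1, a sestrin, rose in Hep-G2 by 1.27 ± 0.09 (SE, adjusted p = 6.14e-05, limma). It rose in BE(2)-C by 0.67 ± 0.12 (SE, adjusted p = 0.00703, limma). SRXN1, sulfiredoxin, which repairs over-oxidised peroxiredoxins, had a change of -1.10 ± 0.17 (SE, adjusted p = 0.00186, limma) in Hep-G2 and of -0.28 ± 0.23 (SE, adjusted p = 0.419, limma) in BE(2)-C. SESN2, another sestrin, fell in Hep-G2 with -0.68 ± 0.08 (SE, adjusted p = 0.000450, limma), beside -0.22 ± 0.07 (SE, adjusted p = 0.0503, limma) in BE(2)-C. The third, SESN3, rose in both lines, in Hep-G2 by 0.81 ± 0.15 (SE, adjusted p = 0.00476, limma). The value in BE(2)-C was 0.67 ± 0.11 (SE, adjusted p = 0.00447, limma), with a difference of 0.14 ± 0.18 (SE, adjusted p = 0.580, limma).

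TXNRD1, the cytosolic thioredoxin reductase, keeps thioredoxin reduced with NADPH and had the lowest log2 fold change of the 10 genes in Hep-G2. There it was at 105, 99.7 and 108 FPKM in siC and at 28.2, 23.8 and 23.7 FPKM in siI1 libraries, 24.2% of the siC mean. Levels in BE(2)-C libraries were 33.3, 37.1 and 38.0 FPKM with siC and 23.6, 24.5 and 26.1 FPKM with siI1, 68.5% of the siC mean. Groups did not overlap in either line. The log2 fold change was -2.04 ± 0.08 (SE, adjusted p = 8.48e-06, limma) for Hep-G2. It was -0.54 ± 0.06 (SE, adjusted p = 0.00149, limma) for BE(2)-C. These differed by -1.50 ± 0.11 (SE, adjusted p = 1.87e-06, limma), and all 3 calls held in every alternative run.

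In the thioredoxin and glutaredoxin list, 4 of 10 tested genes were called higher and 3 lower (median log2 fold change 0.01; over all genes 0.01, with 21.9% higher and 23.0% lower) for Hep-G2, and in the alternatives 3 higher and 4 lower (median -0.15; all genes -0.15, 16.5% and 30.0%) with equal sums, 4 higher and 4 lower (median -0.12; all genes 0.01, 23.4% and 22.3%) with length centring and 4 higher and 3 lower (median 0.01; all genes 0.01, 23.5% and 24.8%) by voom. For BE(2)-C 1 of 10 tested genes was called higher and 1 lower (median log2 fold change -0.10; over all genes 0.02, with 13.3% higher and 14.8% lower), and in the alternatives 1 higher and 2 lower (median -0.08; all genes 0.03, 13.9% and 14.0%) with equal sums, 1 higher and 1 lower (median -0.04; all genes 0.05, 14.8% and 13.2%) with length centring and 1 higher and 2 lower (median -0.10; all genes 0.02, 17.2% and 17.8%) by voom. GLRX, a cytosolic glutaredoxin, had a change of -1.60 ± 0.09 (SE, adjusted p = 2.60e-05, limma) in Hep-G2 and of -0.21 ± 0.09 (SE, adjusted p = 0.132, limma) in BE(2)-C. The mitochondrial reductase TXNRD2 rose in Hep-G2 by 0.54 ± 0.11 (SE, adjusted p = 0.00673, limma), beside 0.04 ± 0.06 (SE, adjusted p = 0.658, limma) in BE(2)-C. TXNIP, which binds and inhibits thioredoxin, rose in BE(2)-C by 0.57 ± 0.06 (SE, adjusted p = 0.00113, limma), from a mean of 30.9 to 46.0 FPKM, and in Hep-G2 by 0.27 ± 0.08 (SE, adjusted p = 0.0277, limma).

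NQO1, a quinone reductase, was at 300, 329 and 317 FPKM in Hep-G2 siC and at 275, 295 and 300 FPKM in siI1 libraries, and these overlapped. It was at 5.44, 4.91 and 4.44 FPKM in BE(2)-C siC and 3.76, 4.15 and 4.32 FPKM in siI1 libraries, with every siI1 value below every siC value. The Hep-G2 change of -0.12 ± 0.07 (SE, adjusted p = 0.206, limma), 95% interval -0.29 to 0.05, was not called, but was with equal sums (-0.29) and length centring (-0.15, adjusted p = 0.0243; adjusted p of 0.00125 to 0.442 over the alternatives), and was -0.08 with median centring. Its BE(2)-C change of -0.27 ± 0.10 (SE, adjusted p = 0.0856, limma), 95% interval -0.50 to -0.04, was not called. The difference of 0.14 ± 0.11 (SE, adjusted p = 0.320, limma) turned to -0.04 with equal sums and was 0.03 with length centring and 0.07 and 0.09 without BE(2)-C replicate 1 of siC or siI1.

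HMOX1, heme oxygenase, breaks down heme. It was at 32.6, 35.0 and 31.5 FPKM in Hep-G2 siC and at 41.4, 49.7 and 49.2 FPKM in siI1 libraries. With BE(2)-C it was at 1.42, 0.908 and 1.37 FPKM in siC, on 28 to 49 reads, and at 0.726, 0.441 and 0.479 FPKM in siI1 libraries, on 15 to 27 reads. Groups lay apart in both lines, in opposite directions. The Hep-G2 change was 0.50 ± 0.08 (SE, adjusted p = 0.00313, limma), and 0.33 with equal sums. The BE(2)-C change was -1.04 ± 0.25 (SE, adjusted p = 0.0211, limma), and -0.52 with a pseudocount of 1. That call was lost without siC replicate 1 (adjusted p = 0.0678) or 3 (0.0650) or siI1 replicate 2 (0.0685) or 3 (0.0682; adjusted p of 0.00251 to 0.0685 over the alternatives). The difference was 1.54 ± 0.25 (SE, adjusted p = 0.000584, limma), and 1.01 with a pseudocount of 1.

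In the quinone and heme list, 1 of 7 tested genes was called higher and 1 lower (median log2 fold change -0.06; over all genes 0.01, with 21.9% higher and 23.0% lower) for Hep-G2, and in the alternatives 1 higher and 5 lower (median -0.23; all genes -0.15, 16.5% and 30.0%) with equal sums, 1 higher and 3 lower (median -0.15; all genes 0.01, 23.4% and 22.3%) with length centring and 1 higher and 1 lower (median -0.06; all genes 0.01, 23.5% and 24.8%) by voom. On the BE(2)-C side 0 of 8 tested genes were called higher and 4 lower (median log2 fold change -0.58; over all genes 0.02, with 13.3% higher and 14.8% lower) by limma, beside 0 higher at an unadjusted p below 0.05 and 0 by voom, and in the alternatives 0 higher and 4 lower (median -0.56; all genes 0.03, 13.9% and 14.0%) with equal sums and 1 higher and 4 lower (median -0.46; all genes 0.05, 14.8% and 13.2%) with length centring. BLVRA, a biliverdin reductase, had a change of -0.35 ± 0.07 (SE, adjusted p = 0.00629, limma) in Hep-G2. Its change was -0.43 ± 0.06 (SE, adjusted p = 0.00204, limma) in BE(2)-C. NQO2, a second quinone reductase, had -0.75 ± 0.11 (SE, adjusted p = 0.00305, limma) in BE(2)-C and -0.18 ± 0.09 (SE, adjusted p = 0.152, limma) in Hep-G2. Among the lower calls of BE(2)-C, HMOX1 rests on 15 to 49 reads per library and CBR3 on 2 to 18. The BE(2)-C median lies between BLVRA and BLVRB, which had -0.74 ± 0.31 (SE, adjusted p = 0.123, limma) on 13 to 42 reads.

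GCLM, the modifier subunit of the enzyme that starts glutathione synthesis, was at 18.03, 16.3 and 17.5 FPKM in Hep-G2 siC and at 18.3, 13.9 and 14.6 FPKM in siI1 libraries. Replicate 1 of siI1 was the highest of these 6 libraries. The change of -0.15 ± 0.11 (SE, adjusted p = 0.289, limma), 95% interval -0.41 to 0.10, became -0.27 (adjusted p = 0.0104; adjusted p of 0.0104 to 0.628 over the alternatives) without that library, -0.08 without siI1 replicate 2, -0.32 with equal sums and -0.08 with length centring. BE(2)-C libraries held 2.16, 2.46 and 2.45 FPKM with siC and 1.56, 1.68 and 1.59 FPKM with siI1, on 120 to 186 reads and with no overlap. GCLM fell there, with a change of -0.52 ± 0.11 (SE, adjusted p = 0.0113, limma). The difference of 0.36 ± 0.14 (SE, adjusted p = 0.0580, limma) passed the threshold in 7 of 23 alternatives, with replicate number as a block among them (adjusted p = 0.0314), and was 0.18 with equal sums (adjusted p = 0.455) and 0.22 with a pseudocount of 1 (0.188).

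Of the genes of glutathione synthesis and recycling, 3 of 12 tested genes were called higher and 6 lower (median log2 fold change -0.24; over all genes 0.01, with 21.9% higher and 23.0% lower) for Hep-G2, and in the alternatives 2 higher and 6 lower (median -0.41; all genes -0.15, 16.5% and 30.0%) with equal sums, 5 higher and 6 lower (median -0.20; all genes 0.04, 23.6% and 21.1%) with median centring, 2 higher and 6 lower (median -0.16; all genes 0.01, 23.4% and 22.3%) with length centring and 4 higher and 6 lower (median -0.24; all genes 0.01, 23.5% and 24.8%) by voom. With BE(2)-C cells 0 of 11 tested genes were called higher and 2 lower (median log2 fold change -0.09; over all genes 0.02, with 13.3% higher and 14.8% lower) by limma, beside 0 higher at an unadjusted p below 0.05 and 1 by voom, and in the alternatives 0 higher and 2 lower (median -0.07; all genes 0.03, 13.9% and 14.0%) with equal sums and 0 higher and 2 lower (median 0.00; all genes 0.05, 14.8% and 13.2%) with length centring. SLC7A11, the cystine transporter, had 19.2 FPKM in Hep-G2 siC and 3.29 FPKM in siI1 libraries, a change of -2.54 ± 0.19 (SE, adjusted p = 7.67e-05, limma), beside 0.53 ± 0.27 (SE, adjusted p = 0.196, limma) in BE(2)-C. Its partner subunit SLC3A2 had -0.75 ± 0.05 (SE, adjusted p = 0.000276, limma) in BE(2)-C and -0.32 ± 0.08 (SE, adjusted p = 0.0151, limma) in Hep-G2. Of the gamma-glutamyltransferases, GGT7 rose in Hep-G2 by 0.78 ± 0.05 (SE, adjusted p = 4.48e-05, limma), beside 0.00 ± 0.07 (SE, adjusted p = 0.987, limma) in BE(2)-C. GGT1 fell in Hep-G2, with -1.10 ± 0.11 (SE, adjusted p = 0.000275, limma), beside 0.64 ± 0.32 (SE, adjusted p = 0.194, limma) in BE(2)-C. The lower calls of Hep-G2 include CHAC1, on 1 to 9 reads per library. Its mean was 0.242 FPKM in siC and 0.046 FPKM in siI1 libraries, the latter below the filter of 0.1. CHAC1 thus passed mainly through siC, and its fall is in part built in.

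Among the genes of NADPH supply, 3 of 10 tested genes were called higher and 3 lower (median log2 fold change 0.12; over all genes 0.01, with 21.9% higher and 23.0% lower) for Hep-G2, and in the alternatives 2 higher and 5 lower (median -0.05; all genes -0.15, 16.5% and 30.0%) with equal sums, 4 higher and 2 lower (median 0.14; all genes 0.01, 23.4% and 22.3%) with length centring and 4 higher and 4 lower (median 0.12; all genes 0.01, 23.5% and 24.8%) by voom. Among BE(2)-C genes 2 of 11 tested genes were called higher and 3 lower (median log2 fold change -0.02; over all genes 0.02, with 13.3% higher and 14.8% lower). IDH1, the cytosolic isocitrate dehydrogenase, had -0.38 ± 0.06 (SE, adjusted p = 0.00309, limma) in Hep-G2. Its change was -0.60 ± 0.06 (SE, adjusted p = 0.000928, limma) in BE(2)-C.

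The order of mean levels (FPKM, per length and within a table) in Hep-G2 siC libraries was PRDX1, NQO1, GPX4, SOD1, TXNRD1, GPX1, HMOX1, CAT, GCLM and SOD2, and the ranges of GPX4 and SOD1, of HMOX1 and CAT, and of GCLM and SOD2 overlapped. With siI1 it was PRDX1, NQO1, GPX4, GPX1, SOD1, CAT, HMOX1, TXNRD1, GCLM and SOD2, with NQO1 and GPX4, and GPX1 and SOD1, overlapping. For BE(2)-C siC libraries the order was PRDX1, SOD1, GPX1, GPX4, TXNRD1, CAT, NQO1, SOD2, GCLM and HMOX1, with GPX1 and GPX4, and CAT and NQO1, overlapping. With siI1 GPX4 stood above GPX1, the rest of the order was the same, and no neighbours overlapped.

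Among genes known as NRF2 targets, 9 of 26 tested genes were called higher and 8 lower (median log2 fold change 0.01; over all genes 0.01, with 21.9% higher and 23.0% lower) for Hep-G2, and in the alternatives 10 higher and 13 lower (median -0.16; all genes -0.15, 16.5% and 30.0%) with equal sums, 12 higher and 9 lower (median 0.09; all genes 0.01, 23.4% and 22.3%) with length centring and 12 higher and 8 lower (median 0.01; all genes 0.01, 23.5% and 24.8%) by voom. For BE(2)-C 3 of 26 tested genes were called higher and 7 lower (median log2 fold change -0.10; over all genes 0.02, with 13.3% higher and 14.8% lower). AKR1B10, an aldo-keto reductase, had 485 FPKM in Hep-G2 siC and 127 FPKM in siI1 libraries, a change of -1.94 ± 0.06 (SE, adjusted p = 3.97e-06, limma), and was listed at 0 in BE(2)-C. AKR1C2, another, rose in Hep-G2 by 1.19 ± 0.06 (SE, adjusted p = 1.88e-05, limma). It rose in BE(2)-C by 1.09 ± 0.14 (SE, adjusted p = 0.00174, limma), and by 0.70 with a pseudocount of 1. AKR1C1 rose in BE(2)-C by 2.18 ± 0.11 (SE, adjusted p = 0.000138, limma), beside -0.04 ± 0.07 (SE, adjusted p = 0.695, limma) in Hep-G2. AKR1C1 and AKR1C2 are close copies of each other.

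The letters TGACNNNGC, a core of the element that NRF2 binds, were searched on both strands of the promoter windows and were present in 13.3% of the 35116. Of the 7 genes matched, GCLM and TXNRD1 held them. They are printed in capitals with 8 bases on each side, to show the letters in the NRF2 targets of the 10 genes that hold them.

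GCLM (chr1:93909448-93909472, minus strand): cgatttctGCTTAGTCAttgtcttc

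TXNRD1 (chr12:104215672-104215696, plus strand): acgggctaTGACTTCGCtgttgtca

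TXNRD1 (chr12:104215763-104215787, plus strand): gtccttcgGCTCCGTCAgttcccac

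TXNRD1 (chr12:104286922-104286946, plus strand): ggatttctGCTTTGTCAttctgact

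These are RefSeq sequences of GRCh38.p14, and all but the first of TXNRD1 hold the letters on the other strand. A window without them says only that these letters are not in those bases.

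Among the regulators, 1 of 19 tested genes was called higher and 12 lower (median log2 fold change -0.42; over all genes 0.01, with 21.9% higher and 23.0% lower) for Hep-G2, and in the alternatives 1 higher and 16 lower (median -0.59; all genes -0.15, 16.5% and 30.0%) with equal sums, 1 higher and 10 lower (median -0.27; all genes 0.01, 23.4% and 22.3%) with length centring and 1 higher and 14 lower (median -0.42; all genes 0.01, 23.5% and 24.8%) by voom. On the BE(2)-C side 1 of 18 tested genes was called higher and 5 lower (median log2 fold change -0.19; over all genes 0.02, with 13.3% higher and 14.8% lower), and in the alternatives 1 higher and 5 lower (median -0.17; all genes 0.03, 13.9% and 14.0%) with equal sums, 2 higher and 5 lower (median -0.19; all genes 0.05, 14.8% and 13.2%) with length centring and 1 higher and 7 lower (median -0.20; all genes 0.02, 17.2% and 17.8%) by voom. NFE2L2 was at 47.2, 44.4 and 47.2 FPKM in Hep-G2 siC and at 35.0, 34.4 and 34.2 FPKM in siI1 libraries, with no overlap and a change of -0.42 ± 0.05 (SE, adjusted p = 0.000495, limma). Its BE(2)-C change was -0.26 ± 0.11 (SE, adjusted p = 0.121, limma), called by voom (adjusted p = 0.0375; adjusted p of 0.0375 to 0.305 over the alternatives), and -0.17 without siC replicate 2. The difference was -0.16 ± 0.12 (SE, adjusted p = 0.294, limma), called with equal sums (-0.35), and -0.05 with length centring and -0.10 and -0.25 without BE(2)-C siC replicate 1 or 2. KEAP1 had a change of -0.03 ± 0.07 (SE, adjusted p = 0.727, limma) in Hep-G2, which turned to 0.01 with median centring and 0.02 without siI1 replicate 1, and was called with equal sums (-0.20; -0.20 to 0.02 over the alternatives). Its change was -0.39 ± 0.05 (SE, adjusted p = 0.00151, limma) in BE(2)-C. These differed by 0.35 ± 0.08 (SE, adjusted p = 0.00526, limma), and by 0.17 with equal sums. NFKBIA rose in Hep-G2 by 0.44 ± 0.06 (SE, adjusted p = 0.00166, limma), beside 0.08 ± 0.07 (SE, adjusted p = 0.394, limma) in BE(2)-C. The lines differed by 0.36 ± 0.09 (SE, adjusted p = 0.00950, limma). HIF1A had -0.79 ± 0.10 (SE, adjusted p = 0.000918, limma) in Hep-G2 but rose in BE(2)-C by 0.47 ± 0.06 (SE, adjusted p = 0.00213, limma). The HIF1A difference was -1.25 ± 0.13 (SE, adjusted p = 2.00e-05, limma).

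BACH1, a repressor of NRF2 targets such as HMOX1, had a change of -0.40 ± 0.11 (SE, adjusted p = 0.0233, limma) in Hep-G2. That call was lost without siC replicate 1 (adjusted p = 0.0769) or 3 (0.0836) or siI1 replicate 2 (0.0735) or 3 (0.0617), and with length centring (-0.25; adjusted p of 0.00542 to 0.0836 over the alternatives). Its BE(2)-C change was 0.17 ± 0.13 (SE, adjusted p = 0.380, limma), which ran from 0.06 to 0.27 over the alternatives, and the difference was -0.57 ± 0.17 (SE, adjusted p = 0.0197, limma). That call was lost with length centring (-0.37, adjusted p = 0.0656) and without Hep-G2 siC replicate 3 (0.0522) or siI1 replicate 2 (0.0506; adjusted p of 0.00225 to 0.0656 over the alternatives).

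FOXO1 and FOXO3 are factors known to act on CAT and SOD2. FOXO1 had -0.39 ± 0.09 (SE, adjusted p = 0.0147, limma) in Hep-G2, lost without siC replicate 3 (adjusted p = 0.0606) or siI1 replicate 2 (0.0522; adjusted p of 0.00514 to 0.0606 over the alternatives). It was not tested in BE(2)-C, where it had 1 to 4 reads per library. FOXO3 had -0.36 ± 0.16 (SE, adjusted p = 0.105, limma) in Hep-G2, called by voom (adjusted p = 0.0376) and without siI1 replicate 1 (0.0328; adjusted p of 0.0328 to 0.293 over the alternatives), and -0.18 with length centring. Its BE(2)-C change was -0.01 ± 0.06 (SE, adjusted p = 0.903, limma), with a sign that turned in 4 of 16 alternatives (-0.05 to 0.01 over the alternatives), and the difference was -0.35 ± 0.17 (SE, adjusted p = 0.137, limma). It was called without Hep-G2 siC replicate 2 (-0.47, adjusted p = 0.0411) or siI1 replicate 1 (-0.47, 0.0241), and was -0.53 with equal sums and -0.13 with length centring (adjusted p of 0.0241 to 0.510 over the alternatives). FOXO4, of the same family, was lower in both lines, with -0.76 ± 0.06 (SE, adjusted p = 7.54e-05, limma) in Hep-G2. Its change was -0.54 ± 0.09 (SE, adjusted p = 0.00653, limma) in BE(2)-C. MAFF and MAFG, small partners of NRF2, were lower in Hep-G2, MAFF with -2.29 ± 0.13 (SE, adjusted p = 2.68e-05, limma). MAFF had -0.35 ± 0.16 (SE, adjusted p = 0.164, limma) in BE(2)-C, a difference of -1.94 ± 0.20 (SE, adjusted p = 2.48e-05, limma). MAFG had -1.12 ± 0.06 (SE, adjusted p = 1.79e-05, limma) in Hep-G2. Its change was -0.41 ± 0.05 (SE, adjusted p = 0.00183, limma) in BE(2)-C, and these differed by -0.71 ± 0.07 (SE, adjusted p = 1.94e-05, limma). MAFK, the third of them, had -0.05 ± 0.08 (SE, adjusted p = 0.676, limma) in Hep-G2. It was lower in BE(2)-C, on 19 to 54 reads per library, with -1.06 ± 0.20 (SE, adjusted p = 0.00795, limma), a difference of 1.01 ± 0.16 (SE, adjusted p = 0.000414, limma).

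Catalase works in peroxisomes, so genes of peroxisomes were listed too. Among peroxisomal enzymes and transporters, 16 of 26 tested genes were called higher and 4 lower (median log2 fold change 0.57; over all genes 0.01, with 21.9% higher and 23.0% lower) for Hep-G2. With BE(2)-C cells 6 of 23 tested genes were called higher and 1 lower (median log2 fold change 0.01; over all genes 0.02, with 13.3% higher and 14.8% lower), and in the alternatives 6 higher and 0 lower (median 0.03; all genes 0.03, 13.9% and 14.0%) with equal sums, 6 higher and 0 lower (median -0.01; all genes 0.05, 14.8% and 13.2%) with length centring and 7 higher and 3 lower (median 0.02; all genes 0.02, 17.2% and 17.8%) by voom. PHYH, which starts the breakdown of phytanic acid, rose in Hep-G2 by 1.16 ± 0.07 (SE, adjusted p = 3.13e-05, limma), beside -0.12 ± 0.12 (SE, adjusted p = 0.501, limma) in BE(2)-C. CRAT, carnitine acetyltransferase, rose in Hep-G2 by 1.198 ± 0.07 (SE, adjusted p = 3.54e-05, limma), beside -0.35 ± 0.11 (SE, adjusted p = 0.0607, limma) in BE(2)-C. CROT, carnitine octanoyltransferase, rose in both lines, in Hep-G2 by 0.85 ± 0.09 (SE, adjusted p = 0.000457, limma). It rose in BE(2)-C by 0.84 ± 0.10 (SE, adjusted p = 0.00168, limma), a difference of 0.00 ± 0.13 (SE, adjusted p = 0.993, limma). AGPS had -0.68 ± 0.12 (SE, adjusted p = 0.00379, limma) in Hep-G2 but rose in BE(2)-C by 0.55 ± 0.08 (SE, adjusted p = 0.00325, limma). PECR rose in Hep-G2 by 0.72 ± 0.06 (SE, adjusted p = 0.000116, limma). In BE(2)-C PECR had -0.45 ± 0.12 (SE, adjusted p = 0.0334, limma), a call kept in 8 of 16 alternatives. MLYCD had -0.86 ± 0.18 (SE, adjusted p = 0.00801, limma) in Hep-G2, and -1.01 to -0.42 over the alternatives.

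Among genes of peroxisome biogenesis, 5 of 14 tested genes were called higher and 6 lower (median log2 fold change 0.02; over all genes 0.01, with 21.9% higher and 23.0% lower) for Hep-G2, and in the alternatives 3 higher and 6 lower (median -0.14; all genes -0.15, 16.5% and 30.0%) with equal sums, 5 higher and 6 lower (median 0.02; all genes 0.01, 23.4% and 22.3%) with length centring and 5 higher and 6 lower (median 0.01; all genes 0.01, 23.5% and 24.8%) by voom. Among BE(2)-C genes 2 of 16 tested genes were called higher and 4 lower (median log2 fold change 0.03; over all genes 0.02, with 13.3% higher and 14.8% lower), and in the alternatives 2 higher and 4 lower (median 0.05; all genes 0.03, 13.9% and 14.0%) with equal sums, 3 higher and 3 lower (median 0.13; all genes 0.05, 14.8% and 13.2%) with length centring and 4 higher and 4 lower (median 0.03; all genes 0.02, 17.2% and 17.8%) by voom. PEX6, part of the import machinery, rose in Hep-G2 by 1.06 ± 0.11 (SE, adjusted p = 0.000384, limma), beside 0.11 ± 0.10 (SE, adjusted p = 0.461, limma) in BE(2)-C. PEX13, a docking protein for import, had a change of -0.80 ± 0.08 (SE, adjusted p = 0.000259, limma) in Hep-G2 and of -0.27 ± 0.16 (SE, adjusted p = 0.258, limma) in BE(2)-C. PEX2, of the same machinery, fell in both lines, with -0.73 ± 0.11 (SE, adjusted p = 0.00158, limma) in Hep-G2. Its change was -0.69 ± 0.08 (SE, adjusted p = 0.00119, limma) in BE(2)-C, a difference of -0.04 ± 0.13 (SE, adjusted p = 0.822, limma).

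GPX1, GPX4 and TXNRD1 need selenium. Among genes of selenoprotein synthesis and selenium supply, 4 of 13 tested genes were called higher and 4 lower (median log2 fold change -0.14; over all genes 0.01, with 21.9% higher and 23.0% lower) for Hep-G2, and in the alternatives 4 higher and 7 lower (median -0.30; all genes -0.15, 16.5% and 30.0%) with equal sums, 4 higher and 3 lower (median 0.02; all genes 0.01, 23.4% and 22.3%) with length centring and 4 higher and 6 lower (median -0.14; all genes 0.01, 23.5% and 24.8%) by voom. For BE(2)-C 2 of 12 tested genes were called higher and 3 lower (median log2 fold change -0.12; over all genes 0.02, with 13.3% higher and 14.8% lower). SEPHS2, which makes the selenium donor, rose in Hep-G2 by 0.37 ± 0.06 (SE, adjusted p = 0.00247, limma), and by 0.20 with equal sums. Its change was -0.53 ± 0.04 (SE, adjusted p = 0.000416, limma) in BE(2)-C. SELENOP, the selenium carrier of plasma, had -0.58 ± 0.06 (SE, adjusted p = 0.000309, limma) in Hep-G2 and was not tested in BE(2)-C. Its receptor LRP8 had -1.81 ± 0.15 (SE, adjusted p = 0.000132, limma) in Hep-G2, and -1.15 with a pseudocount of 1, beside 0.17 ± 0.10 (SE, adjusted p = 0.266, limma) in BE(2)-C.

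Among the other selenoproteins, 5 of 12 tested genes were called higher and 2 lower (median log2 fold change 0.15; over all genes 0.01, with 21.9% higher and 23.0% lower) for Hep-G2, and in the alternatives 4 higher and 4 lower (median -0.02; all genes -0.15, 16.5% and 30.0%) with equal sums, 6 higher and 3 lower (median 0.09; all genes 0.01, 23.4% and 22.3%) with length centring and 5 higher and 2 lower (median 0.15; all genes 0.01, 23.5% and 24.8%) by voom. On the BE(2)-C side 1 of 12 tested genes was called higher and 4 lower (median log2 fold change -0.15; over all genes 0.02, with 13.3% higher and 14.8% lower), and in the alternatives 1 higher and 4 lower (median -0.13; all genes 0.03, 13.9% and 14.0%) with equal sums, 3 higher and 3 lower (median -0.07; all genes 0.05, 14.8% and 13.2%) with length centring and 1 higher and 5 lower (median -0.16; all genes 0.02, 17.2% and 17.8%) by voom. SELENOW rose in Hep-G2 by 1.01 ± 0.10 (SE, adjusted p = 0.000322, limma). Its change was -0.30 ± 0.05 (SE, adjusted p = 0.00762, limma) in BE(2)-C. MSRB1, a methionine sulfoxide reductase, had -0.81 ± 0.07 (SE, adjusted p = 0.000470, limma) in BE(2)-C and 0.12 ± 0.09 (SE, adjusted p = 0.330, limma) in Hep-G2.

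Among enzymes that form superoxide or hydrogen peroxide, 3 of 6 tested genes were called higher and 1 lower (median log2 fold change 0.29; over all genes 0.01, with 21.9% higher and 23.0% lower) for Hep-G2, and in the alternatives 2 higher and 2 lower (median 0.13; all genes -0.15, 16.5% and 30.0%) with equal sums, 4 higher and 1 lower (median 0.42; all genes 0.01, 23.4% and 22.3%) with length centring and 3 higher and 2 lower (median 0.29; all genes 0.01, 23.5% and 24.8%) by voom. With BE(2)-C cells 1 of 6 tested genes was called higher and 1 lower (median log2 fold change -0.10; over all genes 0.02, with 13.3% higher and 14.8% lower), and in the alternatives 1 higher and 1 lower (median -0.08; all genes 0.03, 13.9% and 14.0%) with equal sums, 1 higher and 1 lower (median -0.11; all genes 0.05, 14.8% and 13.2%) with length centring and 2 higher and 1 lower (median -0.03; all genes 0.02, 17.2% and 17.8%) by voom. MAOB, monoamine oxidase B, rose in Hep-G2 by 1.24 ± 0.04 (SE, adjusted p = 5.69e-06, limma) and was not tested in BE(2)-C. CYBA, a subunit of NADPH oxidases, rose in Hep-G2 by 0.63 ± 0.11 (SE, adjusted p = 0.00436, limma). It rose in BE(2)-C by 0.41 ± 0.07 (SE, adjusted p = 0.00665, limma). ERO1A, the oxidase of the endoplasmic reticulum, had -0.82 ± 0.08 (SE, adjusted p = 0.000301, limma) in Hep-G2. Its change was -0.31 ± 0.05 (SE, adjusted p = 0.00610, limma) in BE(2)-C.

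**Figure D5:**
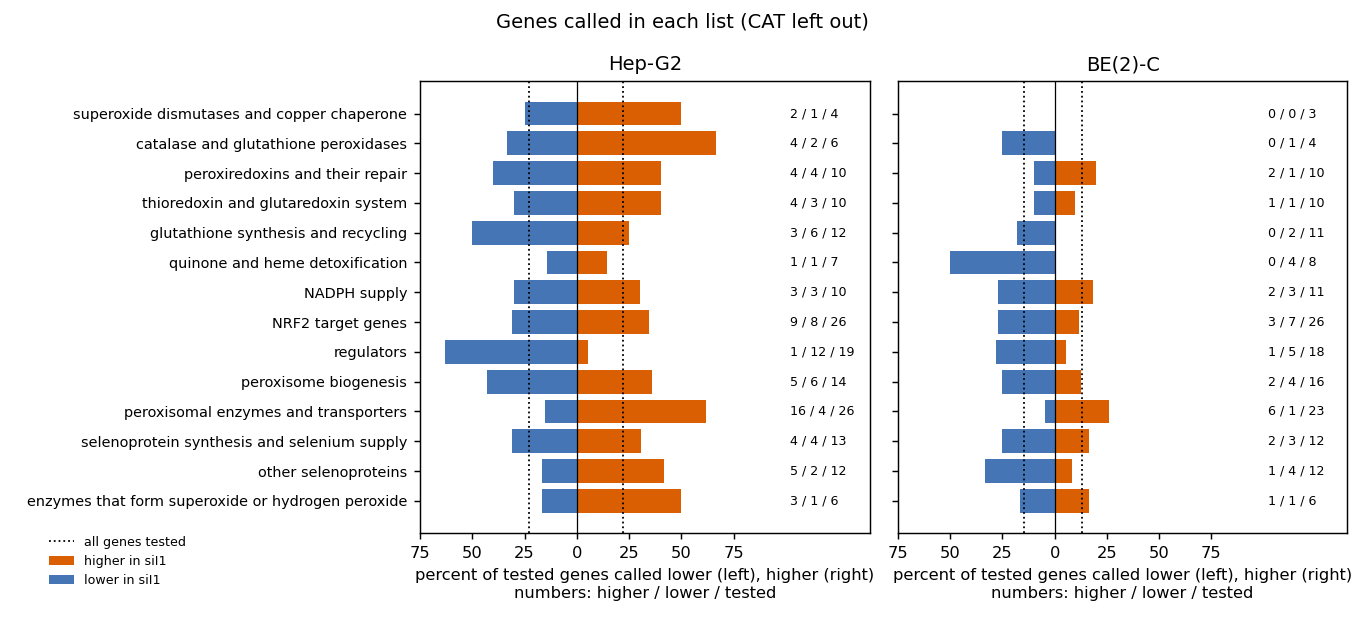
Percent of the tested genes of each list called higher (orange, right) or lower (blue, left) in siI1 libraries at an adjusted p below 0.05, with counts (higher, lower, tested) beside each bar and dotted lines for all genes tested. For Hep-G2 the regulators reach 12 of 19 lower and the peroxisomal enzymes 16 of 26 higher.

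The libraries were strand-specific according to the study's methods, but the strand setting of the read counting was not given in the sources used here. In GENCODE 44 GPX4, HMOX1 and GCLM overlap no other gene, as CAT does not. SOD2 overlaps WTAP and ACAT2, and PRDX1 overlaps MMACHC, on the other strand. TXNRD1 overlaps EID3, and GPX1 another protein-coding annotation, on the same strand. SOD1 and NQO1 overlap a long noncoding RNA on the other strand. On the same strand SOD1 also overlaps a snoRNA, SOD2 overlaps SOD2-OT1, HNRNPH1P1 and RNU4ATAC18P, and TXNRD1 overlaps RPL18AP3. On the other strand PRDX1 also overlaps HMGB1P48, and TXNRD1 a long noncoding RNA. The part of such overlaps in these values was not tested.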

How the data were processed

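Poly-A RNA of 12 samples was sequenced as paired reads of 150 nt. Per the submitters' processing notes and the study's methods, the authors trimmed reads with Cutadapt 1.14, aligned them to hg38 with HISAT2 2.1.0 and SAMtools 1.5, counted them on genes of Ensembl release 89 with featureCounts 1.5.3 and normalised with edgeR 3.30.3 (TMM). The deposited FPKM values were used, and the deposited gene lengths. The authors also deposited log2 fold changes, p-values and FDR of their own comparisons, which were not used. FPKM times length, rescaled by the TMM-scaled size of each library, gave whole reads for 100% of values above 0 (tolerance 0.01 read).

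limma 3.58.1 with a mean-variance trend (R 4.3.3) was fitted across all genes to log2(FPKM + 0.1), for genes whose FPKM reached 0.1 in 3 or more of the 6 libraries, with two-sided Benjamini-Hochberg adjusted p and an interaction term over 12 libraries for the difference between lines. The change of a low gene is understated on this scale. An exact test of 3 against 3 libraries cannot go below p = 0.1, so p-values came from the fit across genes. On simulated counts the median error, pooled over raised and lowered genes, was near 0. It cannot show a pull of the changes toward 0, since the directions cancel. The share of false calls by this fit exceeded the nominal rate, and changes of low-count genes were often missed. With voom on reads that share stayed below the nominal rate and fewer were missed, so voom on the recovered reads is given as an alternative. The first limits set on recovery in that simulation were not met and were dropped, and the planned fit was kept.

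The 10 genes and 14 lists were chosen with earlier results of these data known, as were 3 marker lists. Named were the 10 genes, IGF2BP1, 5 regulators, some of the up to 2 called genes per list, line and direction with the smallest p, further members of their families, some listed genes with few reads, and the 5 genes most correlated with CAT. Some listed genes and markers are not reported here by name but are in the counts and sums. Counts of lists leave CAT out. Alternatives were other pseudocounts, filters and scalings, no trend, a replicate block, voom, leaving out each library and, added after seeing the data, centring within length groups. Annotation came from GENCODE 44 and promoters from RefSeq. Python 3.11.15, scipy 1.17.1 and matplotlib 3.10.9 were used.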

Additional observations from a re-analysis of the deposited data

Results flagged for a closer look

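The change with siI1 differed between Hep-G2 and BE(2)-C by the limma interaction (log2 fold change of Hep-G2 minus that of BE(2)-C) for 6 of the 9 tested enzymes. Of these differences 4 were positive and 2 negative, beside 18.5% positive and 21.7% negative of 15362 genes tested. Among the named regulators the difference was called for KEAP1, BACH1, MAFF, MAFG, MAFK, NFKBIA and HIF1A. The difference was 1.51 for GPX1, 1.12 for GPX4, 1.54 for HMOX1 and -1.50 for TXNRD1, each called in every alternative run. GPX1 and HMOX1 were called in opposite directions in the lines. The difference was 0.34 for SOD1 and -0.34 for SOD2, and both calls were lost with centring within length groups, that of SOD1 in 5 of 23 alternatives and that of SOD2 in 1 of 23. It was 0.35 for KEAP1, called in every alternative run, and -0.57 for BACH1, lost in 3 of 23. By the main fit it was -1.94 for MAFF, -0.71 for MAFG, 1.01 for MAFK, 0.36 for NFKBIA and -1.25 for HIF1A.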

How the results depend on the processing

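For the 9 tested enzymes, 27 results (each line and the difference) gave 493 values under the alternatives. Of these 444 kept their direction and their side of the threshold, 21 lost a call, 21 gained one and 7 changed sign. With an absolute log2 fold change of at least 1 as well, 1571 genes were higher and 1340 lower for Hep-G2, with 2 and 1 of the enzymes. For BE(2)-C these were 561 and 312 genes, with 1 enzyme lower, since fewer genes meet both limits. Equal sums of FPKM gave 4 enzymes lower in Hep-G2, beside 30.0% of all genes (23.0% in the main fit). Centring within length groups, chosen after seeing the data, left 1 enzyme (TXNRD1) with a negative difference between lines called, beside 20.7% of all genes.

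Changes of sign with median centring were 0.00412 for PRDX1 and 0.00961 for KEAP1 in Hep-G2 and 0.0135 for FOXO3 in BE(2)-C. With equal sums they were 0.00681 for FOXO3 in BE(2)-C and, for the difference, -0.0423 for NQO1 and -0.170 for IGF2BP1, which was -0.0833 with a pseudocount of 1. With centring within length groups they were 0.0575 for SOD1 and 0.0105 for GPX4 in BE(2)-C and -0.0135 for the PRDX1 difference. The cause was not tested.

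Leaving out each library in turn gave 1519 to 2103 genes called higher, 1895 to 2316 called lower and 3 to 5 enzymes called lower in BE(2)-C, with 3 without siI1 replicate 2 or 3. It gave changes of -0.0792 to 0.0222 for PRDX1 and -0.0723 to 0.0205 for KEAP1 in Hep-G2, -0.0547 to 0.0141 for FOXO3 in BE(2)-C and -0.0642 to 0.0563 for the IGF2BP1 difference. By voom on recovered reads 4576 genes were higher and 4822 lower for Hep-G2, and 3201 and 3329 for BE(2)-C, with 4 enzymes higher and 2 lower, and 0 and 5. Libraries of the same number did not resemble each other (correlations of -0.0062 to 0.0625 in Hep-G2 and -0.0102 to 0.0225 in BE(2)-C), and with replicate number as a block 4318 genes were higher and 4502 lower for Hep-G2, and 2141 and 2531 for BE(2)-C. For the difference the block gave 2941 positive and 3354 negative calls. The enzymes with a positive difference called went from 4 to 6, with PRDX1 (adjusted p = 0.0290, limma) and GCLM (0.0314) added. Both had the more negative change in BE(2)-C. A filter at an FPKM of 1 gave no value for HMOX1 in BE(2)-C, where its 15 to 49 reads per library limit precision.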
